A study of Mus musculus with 5 samples.

Results

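The Wnt pathway genes examined here were chosen by name: all Wnt, Frizzled (Fzd), secreted frizzled-related (Sfrp), Dickkopf (Dkk) and R-spondin (Rspo) genes in the deposited tables, the R-spondin receptors Lgr4, Lgr5 and Lgr6, and a fixed list of co-receptors, intracellular regulators and nuclear factors. This gave 72 genes of 24347. Both populations came from precancerous mammary lesions of mice carrying MMTV-Wnt-1, a transgene in which the viral MMTV promoter drives Wnt-1 in the mammary epithelium, on a background mixed from FVB, SJL and C57BL/6. One population, Krt6a+, is described by the labels as keratin 6a-expressing stem cells of the lesion (2 libraries, numbered 2 and 3). The other, WAP+, expresses whey acidic protein, a milk protein tied to differentiated mammary cells (3 libraries, numbered 1 to 3). Each library came from a small sorted pool, gated by an antibody that binds TVA (the receptor of an avian virus), and its cDNA was amplified. The sources used here give neither the age of the mice nor the way TVA marked each population. All cells therefore carried the same Wnt-1 transgene, and there was no library without it.

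Wnt proteins are secreted lipid-modified ligands: Porcn adds the lipid and Wls carries the ligand to the cell surface. There the ligand binds Frizzled receptors with Lrp5 or Lrp6, the destruction complex of Axin, Apc and Gsk3b is held back, and beta-catenin (Ctnnb1) enters the nucleus and works with TCF and LEF factors. R-spondins acting through Lgr receptors strengthen the signal by removing the ligases Rnf43 and Znrf3, and Axin2, Lgr5, Rnf43, Znrf3 and Notum are commonly read as genes the pathway switches on. In the mammary gland, Wnt signals are known for sustaining stem and basal cells.

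Values are deposited FPKM, the fragments counted per kilobase of transcript relative to all mapped fragments, summed over the transcripts of a gene. A value of exactly 0 may mean a failed estimate: even Gapdh, a housekeeping gene, was at 0 in 3 of the 5 libraries, and Eno1 in all 5. Genes reaching an FPKM of 1 in 2 or more libraries were tested on log2(scaled FPKM + 1), so that folds of low genes are understated. In such small pools, fewer cells of a type and less RNA per cell cannot be told apart. Separate mice are not stated for the libraries, so the p-values reflect the spread of these samples alone, which may be technical. The genes that name the populations followed the labels: Krt6a had FPKM of 1380 and 1133 in Krt6a+ cells, against 168, 50.01 and 120 in WAP+ cells, and Wap was listed at 0 in both Krt6a+ libraries, against 50.1, 126 and 13.9. The summed FPKM of 6 basal markers was 2724 and 2650 in Krt6a+ cells, against 984, 171 and 909 in WAP+ cells, most of it Krt14 and Krt5. Trp63 of the same list was also higher, at 5.22 and 12.9 against 0.11, 1.65 and 1.99. The contractile genes Acta2 and Myh11 of that list were lower in both Krt6a+ libraries. Acta2 had 0.66 and 0.40 against 23.7, 25.2 and 8.35 (limma, log2 difference -3.64, adjusted p = 0.0547). Myh11, too low to be tested, had 0.03 and 0.03 against 1.00, 0.54 and 1.23. Oxtr, also not tested, had 0.26 in Krt6a+ library 2 and was listed at 0 in the other libraries. The summed FPKM of 9 luminal markers was 1401 and 3731 in Krt6a+ cells, against 8973, 7851 and 7928 in WAP+ cells, most of it Krt18, Krt19, Krt8 and Epcam. Of the 6 luminal markers tested, 5 were lower in Krt6a+ libraries without overlap on scaled values, and Kit was higher. Kit had 9.12 and 7.35 against 3.15, 3.84 and 2.85 (limma, log2 difference 1.01, adjusted p = 0.443). Esr1, Pgr and Prlr were too low to be tested. Krt6a+ library 3 lay nearer to the WAP+ libraries in the luminal sum than Krt6a+ library 2, and the part of this makeup in the results below was not tested. The 7 immune markers summed to at most 1.03, and 5 of 6 adipocyte markers were listed at 0 in every library, the exception being Fabp4, at 0 in both Krt6a+ libraries against 2188, 65.8 and 20.3 in WAP+ cells (limma, adjusted p = 0.0791).

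Some of the differences between libraries below lie between transcripts with separate start sites, and the 250 bases before 4 of these starts show what kind of sequence each begins from. The sequences are those of RefSeq on GRCm38.p6, given 5′ to 3′ in the direction of the gene. Capitals mark the TCF/LEF letters CTTTGAT or CTTTGTT on either strand. The first lies before the upstream beta-catenin start (chr9:120933150-120933399, plus strand), which carried FPKM in the Krt6a+ libraries alone. The next 2 lie before the distal (chr6:119544348-119544597, minus strand) and inner (chr6:119467212-119467461, minus strand) starts of Wnt5b, the ligand with the most FPKM. The last lies before the upstream start of Wnt11 (chr7:98834862-98835111, plus strand) and holds the letters.
Ctnnb1 upstream: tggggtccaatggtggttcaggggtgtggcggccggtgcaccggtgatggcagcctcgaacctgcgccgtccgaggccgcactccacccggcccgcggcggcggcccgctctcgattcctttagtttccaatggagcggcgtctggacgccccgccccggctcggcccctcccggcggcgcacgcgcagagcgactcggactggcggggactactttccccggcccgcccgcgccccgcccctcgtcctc
Wnt5b distal: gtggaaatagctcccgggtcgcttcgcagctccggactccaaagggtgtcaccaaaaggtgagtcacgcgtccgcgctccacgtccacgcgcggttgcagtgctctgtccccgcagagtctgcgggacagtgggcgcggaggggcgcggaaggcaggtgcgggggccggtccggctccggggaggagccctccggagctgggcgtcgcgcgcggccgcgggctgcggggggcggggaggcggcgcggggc
Wnt5b inner: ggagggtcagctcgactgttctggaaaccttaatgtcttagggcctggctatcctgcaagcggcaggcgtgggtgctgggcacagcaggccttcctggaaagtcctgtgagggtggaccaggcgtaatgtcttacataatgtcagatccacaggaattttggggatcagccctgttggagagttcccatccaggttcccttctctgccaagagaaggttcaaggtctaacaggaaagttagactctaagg
Wnt11 upstream: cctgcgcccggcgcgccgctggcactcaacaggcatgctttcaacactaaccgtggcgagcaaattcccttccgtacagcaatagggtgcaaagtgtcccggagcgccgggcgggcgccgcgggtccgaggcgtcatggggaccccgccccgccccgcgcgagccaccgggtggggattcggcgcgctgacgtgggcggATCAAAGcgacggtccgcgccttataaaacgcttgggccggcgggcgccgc

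These windows differed in base composition: 74.8% of the bases before the Ctnnb1 start were G or C, 75.2% before the distal and 53.2% before the inner Wnt5b start, and 70.8% before the Wnt11 start. RefSeq promoter windows of 300 bases were at hand for 50 of the 72 genes. The TCF/LEF letters were found in 6 of the 60 windows of these genes and in 9.33% of all 32851 windows, so they were about as common in Wnt pathway promoters as elsewhere. The 6 genes were Fzd7, Wnt3, Wnt5b, Wnt11, Dkk1 and Tcf7l2, and the Wnt5b match lay before another, innermost start whose transcript was listed at 0 in the 5 libraries.

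Of the 72 genes, 35 were tested, 22 were above 0 somewhere but below the filter, and 15 were listed at 0 in every library. With limma and Benjamini-Hochberg adjustment over all 9682 tested genes, 0 of the 35 were higher and 0 lower in Krt6a+ libraries, against 0.258% and 0.434% of all tested genes. At an unadjusted p under 0.05, 7 were higher and 1 lower, against 7.66% and 9.45% of all tested genes. In 11 genes the Krt6a+ libraries lay above every WAP+ library, and in 2 below, where 17.4% of all tested genes lay above and 17.4% below. The median log2 difference, Krt6a+ minus WAP+, was 0.22 over the 35 genes and -0.01 over all tested genes. Lgr5 and Porcn passed the filter through the Krt6a+ libraries alone, and Rspo1 and Sfrp2 through the WAP+ libraries alone, so these genes were tested because of the level in 1 population.

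**Figure D1:**
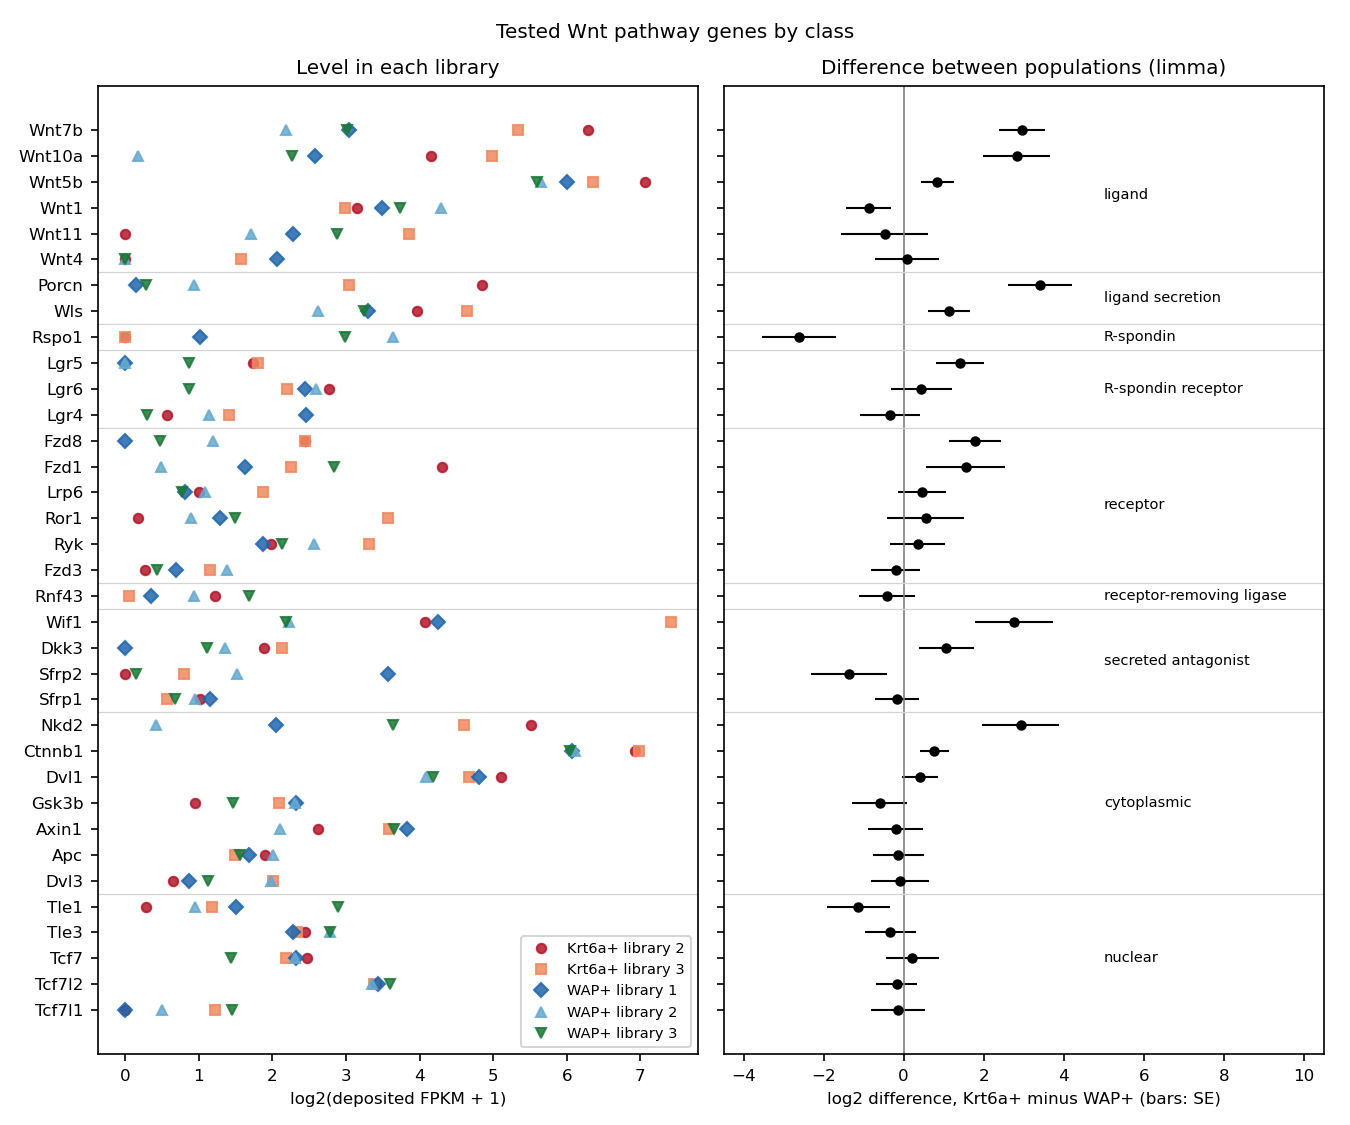
Left, level of the 35 tested Wnt pathway genes in each library as log2(deposited FPKM + 1); right, the limma log2 difference with its standard error, on scaled values. Wnt7b, Wnt10a, Porcn, Nkd2 and Wif1 have the largest positive differences and Rspo1 the largest negative one, and the nuclear factors sit near 0 or below; none of the 35 passed the adjusted threshold.

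Among the ligands, Wnt7b came nearest to the threshold. Wnt7b, a ligand of epithelia, had FPKM 77.4 and 39.3 in Krt6a+ cells, against 7.26, 3.54 and 7.10 in WAP+ cells. The populations did not overlap, and the deposited 95% intervals were narrow beside the gap. For Krt6a+ library 3 the interval was 35.9 to 42.8, and for WAP+ library 1 it was 5.77 to 8.74. After scaling, the mean was 56.9 ± 31.2 (SD, n = 2) against 6.13 ± 2.12 (SD, n = 3). The log2 difference of 2.96 ± 0.57 SE, or 7.76-fold, missed the threshold (limma, adjusted p = 0.0602). The call was made without Krt6a+ library 3 (log2 3.53, adjusted p = 0.0470) and with a filter of FPKM 5 (adjusted p = 0.0435), and over all alternatives the adjusted p ran from 0.0435 to 0.209. The gene spans 85535437 to 85581821 on the minus strand of chromosome 15 in mm10, and its single transcript above 0, NM_009528, starts at the most upstream of 3 sites. An exon of Wnt7b lies under the antisense gene AU022754 over 198 bases, and the library kit does not mark strand.

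Wnt10a, a ligand of skin appendage and epithelial development, had FPKM 16.9 and 30.5 in Krt6a+ cells, against 4.99, 0.13 and 3.797 in WAP+ cells. Every Krt6a+ value was above every WAP+ value, and WAP+ library 2 stood lowest. The log2 difference was 2.82 ± 0.83 SE and did not pass (limma, adjusted p = 0.145), and it was 2.08 without WAP+ library 2. Wnt5b, which signals largely outside the beta-catenin branch, had the highest FPKM of the ligands in all 5 libraries, 133 and 80.8 in Krt6a+ cells, against 62.9, 49.1 and 47.4 in WAP+ cells. The groups lay apart, with WAP+ library 1 nearest to Krt6a+ library 3 (limma, log2 0.84 ± 0.41 SE, adjusted p = 0.343). The difference was 0.39 without Krt6a+ library 2 and 1.30 without Krt6a+ library 3.

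Wnt1, the transgene's own gene, had its higher values in WAP+ libraries. FPKM of its model was 7.91 and 6.94 in Krt6a+ cells, against 10.3, 18.6 and 12.4 in WAP+ cells, with no overlap of the values. The deposited intervals did overlap, since that of Krt6a+ library 2 reached up to 9.78 and that of WAP+ library 1 down to 7.77. The difference was not past the threshold (limma, log2 difference -0.88 ± 0.56 SE, adjusted p = 0.466). The table does not separate transcripts of the endogenous gene (chromosome 15, 98789857 to 98793830, plus strand) from those of the transgene. Beside the other ligands, Wnt1 made up 3.35% and 3.88% of the summed ligand FPKM in Krt6a+ cells, against 10.7%, 25.2% and 16.002% in WAP+ cells. The sum over 19 ligand genes was 236 and 179 in Krt6a+ cells, against 95.7, 73.7 and 77.2 in WAP+ cells, so in Krt6a+ libraries a lower Wnt1 FPKM stood beside a larger sum of Wnt5b, Wnt7b and Wnt10a. Wnt5b alone was 56.4% and 45.1% of the sum in Krt6a+ cells, against 65.8%, 66.6% and 61.4% in WAP+ cells. These sums and shares are given as values, without a test.

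**Figure D2:**
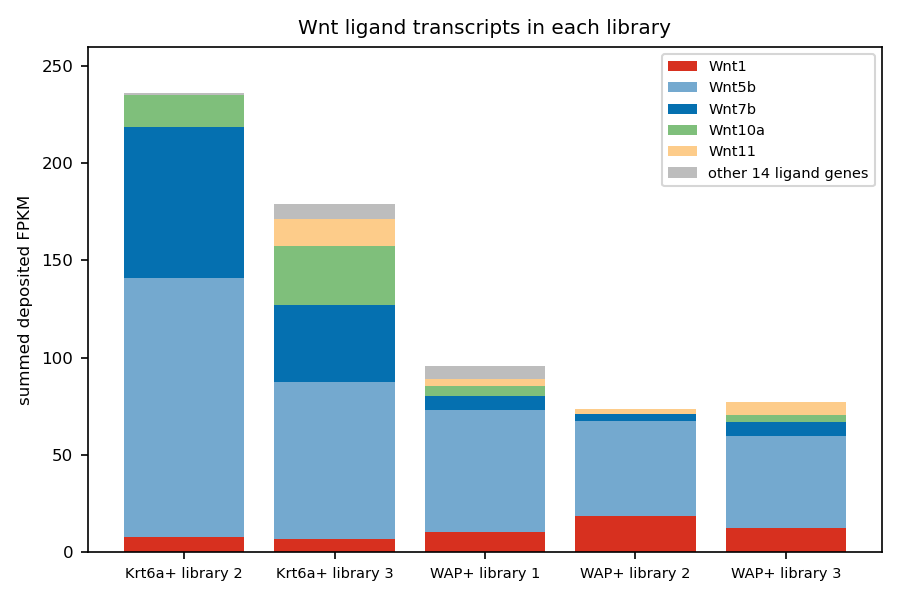
Summed deposited FPKM of the Wnt ligand genes in each library, split into the 5 leading ligands and the remaining 14. The bars reach 236 and 179 in Krt6a+ libraries and 73.7 to 95.7 in WAP+ libraries; Wnt5b is the largest block in every bar, and the Wnt7b and Wnt10a blocks are larger in the Krt6a+ bars.

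The other ligands were low or split within a population. Wnt11, a ligand of the non-canonical branch, was listed at 0 in Krt6a+ library 2 and had FPKM 13.5 in Krt6a+ library 3, against 3.85, 2.27 and 6.36 in WAP+ libraries. Wnt4, a ligand known for progesterone-driven branching of the gland, had 0 and 1.98 in Krt6a+ cells, against 3.17, 0 and 0 in WAP+ cells. Below the filter, Wnt10b reached FPKM 4.14 and Wnt5a 1.75, each in Krt6a+ library 3, and Wnt9a 1.78 in WAP+ library 1. Wnt2, Wnt2b, Wnt3, Wnt3a, Wnt6, Wnt8a, Wnt8b and Wnt16 were listed at 0 in every library.

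Both genes of ligand secretion were higher in each Krt6a+ library than in any WAP+ library, and neither passed. Porcn, the acyltransferase that lipid-modifies Wnt proteins, had FPKM 27.8 and 7.22 in Krt6a+ cells, against 0.11, 0.91 and 0.21 in WAP+ cells (limma, log2 3.399 ± 0.80 SE, adjusted p = 0.0943). Porcn passed the filter through the Krt6a+ libraries alone, and its log2 difference ran from 1.84 to 5.01 over the alternatives. Of the 27.8 in Krt6a+ library 2, 19.4 belonged to the non-coding model NR_131893, which was listed at 0 in the other 4 libraries. The coding transcript NM_016913 alone had 8.37 and 7.22 in Krt6a+ cells, against 0.08, 0.76 and 0.17 in WAP+ cells, so it was similar in both Krt6a+ libraries. Wls, the carrier of Wnt proteins, had FPKM 14.6 and 24.1 in Krt6a+ cells, against 8.83, 5.17 and 8.49 in WAP+ cells (limma, log2 1.14 ± 0.53 SE, adjusted p = 0.320). Its coding transcript NM_026582 had 14.6 and 14.8 in Krt6a+ libraries, and a non-coding model made up the rest of the value in library 3. The models of each of these genes share a start and span, so how their reads were split is uncertain.

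R-spondins and their receptors did not move as a block. Rspo1, the R-spondin of luminal cells in the mouse gland, was listed at 0 in both Krt6a+ libraries and had FPKM 1.02, 11.4 and 6.90 in WAP+ libraries. The value of WAP+ library 1 rested on few reads, with an interval of 0.43 to 1.61. Rspo1 did not pass (limma, adjusted p = 0.198), and its fitted difference of -2.61 ± 0.92 SE depends on the pseudocount because one group is at 0, so no fold is given. Rspo2 and Rspo3 stayed at or below FPKM 0.09, and Rspo4 was listed at 0 in every library.

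Lgr5, an R-spondin receptor and stem cell marker of other epithelia, had FPKM 2.32 and 2.49 in Krt6a+ cells, against 0, 0 and 0.82 in WAP+ cells. The populations lay apart at a low level, and the difference was not past the threshold (limma, log2 difference 1.398 ± 0.60 SE, adjusted p = 0.287). Lgr5, too, passed the filter through the Krt6a+ libraries alone. Lgr6 had 5.83 and 3.58 in Krt6a+ cells, against 4.46, 5.03 and 0.83 in WAP+ cells, and Lgr4 had 0.48 and 1.66 against 4.49, 1.20 and 0.23. Both overlapped between populations. The ligases that R-spondins act on were low: Rnf43 had FPKM 1.32 and 0.04 in Krt6a+ cells, against 0.28, 0.92 and 2.22 in WAP+ cells, and Znrf3 did not exceed 0.76.

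Of 15 receptor genes, 6 were tested. Fzd8, a Frizzled receptor, had FPKM 4.46 and 4.42 in Krt6a+ cells, against 0, 1.29 and 0.39 in WAP+ cells. Its groups did not overlap, and it was not past the threshold (limma, log2 difference 1.78 ± 0.66 SE, adjusted p = 0.219). Fzd1 had 18.8 and 3.77 in Krt6a+ cells, against 2.09, 0.40 and 6.17 in WAP+ cells, where WAP+ library 3 exceeded Krt6a+ library 3 (limma, log2 1.55 ± 0.98 SE, adjusted p = 0.463). The difference was 0.44 without Krt6a+ library 2, 2.66 without Krt6a+ library 3 and 0.97 without WAP+ library 2. Ror1, a receptor tyrosine kinase for Wnt5-type ligands, was at 0.13 and 10.9 in Krt6a+ libraries, a wide split, and at 1.45, 0.86 and 1.81 in WAP+ libraries. Ryk, an atypical kinase that also binds Wnt proteins, had 2.96 and 8.98 against 2.68, 4.93 and 3.39. The co-receptor Lrp6 had 1.00 and 2.66 against 0.76, 1.11 and 0.71, and Lrp5 did not exceed 0.72. Fzd3 stayed between 0.20 and 1.62.

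Several receptors below the filter had their highest value in 1 library. Fzd4, a Frizzled of endothelium among other tissues, had FPKM 7.23 in WAP+ library 1 and was listed at 0 in the other 4. In the same library the endothelial marker Emcn had 15.1 and Pecam1 4.82, and the summed FPKM of 5 endothelial markers was 23.4, against at most 0.74 in the other libraries. The part of such cells in the Fzd4 value was not tested. Fzd6 reached 2.55 in WAP+ library 2, Fzd10 2.31 in Krt6a+ library 2 and Ror2 2.18 in WAP+ library 3. Fzd7 reached 1.28 in WAP+ library 1 and did not exceed 0.52 elsewhere, and Fzd2 was listed at 0 in every library.

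Secreted antagonists were led by 1 library. Wif1, which binds Wnt proteins outside the cell, had FPKM 15.9 and 170 in Krt6a+ cells, against 18.0, 3.67 and 3.54 in WAP+ cells. On the deposited scale Krt6a+ library 2 was below WAP+ library 1, and after scaling between libraries it was just above, so the groups were apart only on the scaled values. The log2 difference was 2.76 ± 0.97 SE (limma, adjusted p = 0.198), and it was 1.19 without Krt6a+ library 3 and 4.33 without Krt6a+ library 2 (adjusted p = 0.505 and 0.0582). Notum, an esterase that removes the lipid from Wnt proteins, followed the same library, at 10.9 in Krt6a+ library 3 and no more than 0.74 elsewhere, and was below the filter. Its exons lie under antisense genes over up to 612 bases. Dkk3, a Dickkopf-family protein, had FPKM 2.71 and 3.38 in Krt6a+ cells, against 0, 1.57 and 1.17 in WAP+ cells (limma, log2 1.07 ± 0.69 SE, adjusted p = 0.472).

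Sfrp2, a secreted Wnt-binding protein made by stromal cells in many tissues, had FPKM 10.9 in WAP+ library 1, 1.88 and 0.11 in the other WAP+ libraries, and 0 and 0.74 in Krt6a+ cells (limma, log2 -1.37 ± 0.96 SE, adjusted p = 0.502). The 7 fibroblast markers summed to FPKM 18.6, 8.60 and 84.2 in WAP+ cells, against 57.5 and 210 in Krt6a+ cells, of which Dcn alone gave 210 in Krt6a+ library 3, while Col1a1 and Col3a1 were listed at 0 in WAP+ library 1. Pdgfrb and Pdgfra, also fibroblast markers, were highest in WAP+ library 1, at 1.55 and 0.28 against at most 0.03 and 0.02 elsewhere, and the part of such cells in the Sfrp2 value was not tested. Sfrp1 was near 1 in all libraries, from 0.49 to 1.22. Dkk1, Dkk2, Dkk4 and Sfrp5 were listed at 0 in every library, and Sfrp4 reached 0.76 in WAP+ library 2.

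Among the 7 tested cytoplasmic components, Nkd2, which binds Dishevelled and restrains the signal, showed the largest positive difference. Its FPKM was 44.6 and 23.2 in Krt6a+ cells, against 3.13, 0.34 and 11.5 in WAP+ cells. The groups did not overlap, but WAP+ libraries 2 and 3 lay far apart, and Nkd2 was not past the threshold (limma, log2 difference 2.92 ± 0.97 SE, adjusted p = 0.182). Its relative Nkd1 did not exceed 0.28. Axin2, the scaffold that is induced as negative feedback in many Wnt-responsive cells, had FPKM 0.88 and 2.32 in Krt6a+ libraries, with intervals of 0.51 to 1.25 and 1.66 to 2.99, and was listed at 0 in all 3 WAP+ libraries. It was below the filter, so it has no test, and no fold is given against 0. The highest listed value of Axin2 was 2.32, and its values of 0 may be failed estimates.

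**Figure D3:**
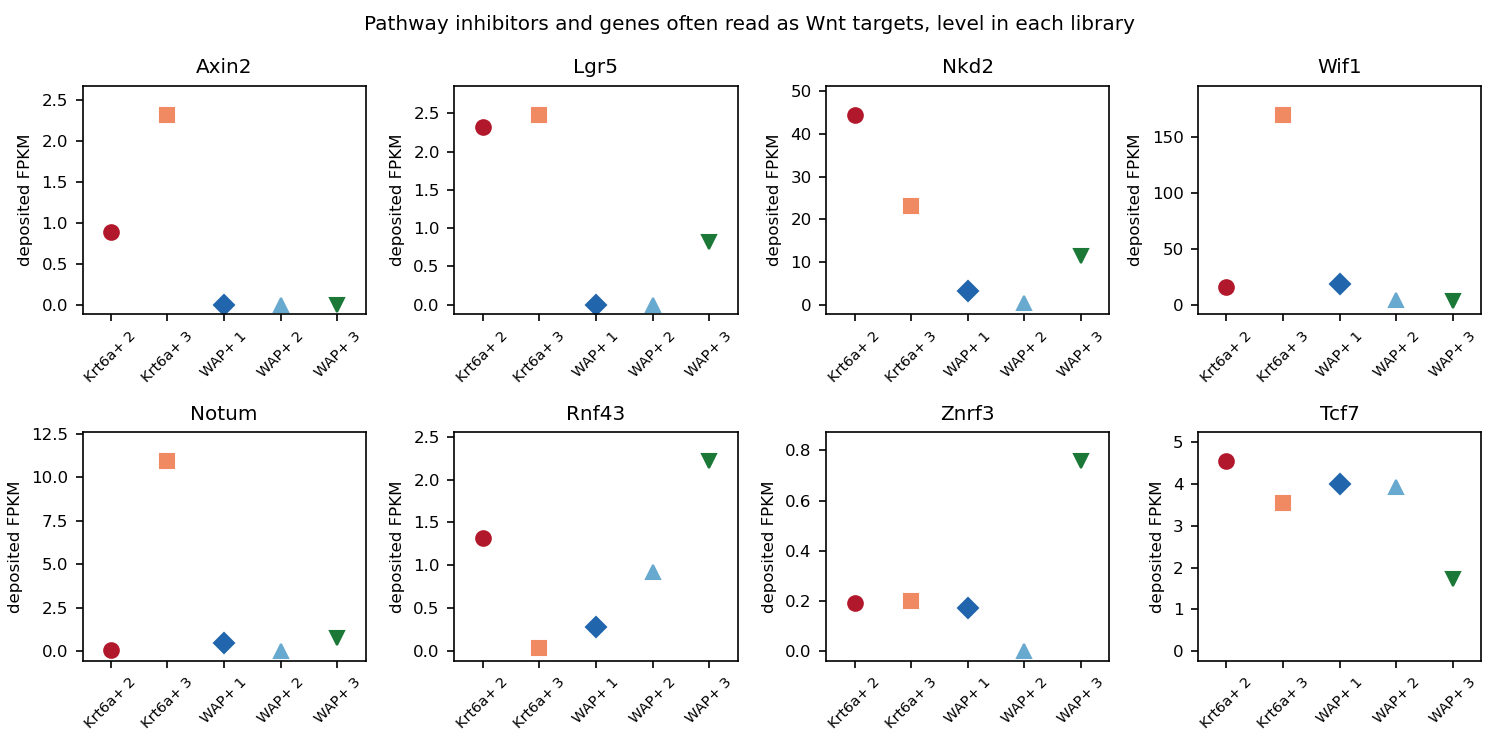
Deposited FPKM in each library of 8 genes that restrain the pathway or are often read as its targets; each panel has its own scale. Axin2, Lgr5 and Nkd2 are higher in both Krt6a+ libraries than in any WAP+ library, Wif1 and Notum stand out in Krt6a+ library 3 alone, at 170 and 10.9, and Rnf43, Znrf3 and Tcf7 overlap.

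Of the destruction complex, Axin1, Apc and Gsk3b overlapped between populations, while Axin2, given above, and Gsk3a, given below, did not. Axin1 had FPKM 5.13 and 10.95 in Krt6a+ cells, against 13.2, 3.29 and 11.6 in WAP+ cells, Apc stayed between 1.82 and 3.02, and the kinase Gsk3b between 0.93 and 3.98. Of the Dishevelled genes, which pass the signal on from Frizzled, Dvl1 was the highest, at 33.6 and 24.6 in Krt6a+ cells, against 27.1, 16.04 and 17.2 in WAP+ cells. Dvl3 stayed between 0.57 and 3.03 and Dvl2 did not exceed 1.05.

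Ctnnb1, which encodes beta-catenin, had summed FPKM of 121 and 125 in Krt6a+ cells, against 65.9, 68.3 and 64.8 in WAP+ cells. The groups did not overlap and each was tight, and the difference was not past the threshold (limma, log2 difference 0.76 ± 0.36 SE, adjusted p = 0.327). The difference lay in 1 of 2 RefSeq transcripts. NM_001165902 had 58.8 and 70.7 in Krt6a+ cells, against 65.9, 68.3 and 64.8 in WAP+ cells. NM_007614, which starts 178 bases upstream on chromosome 9 at the site shown above, had 62.0 and 54.4 in Krt6a+ cells, while all WAP+ libraries listed it at 0, with upper bounds of 0.12, 0.08 and 0.10. With the highest transcript in place of the sum the log2 difference of Ctnnb1 was -0.12 (limma, adjusted p = 0.913). The 2 models share nearly all of their span, so how Cufflinks split their reads is uncertain. Ulk4, on the other strand, overlaps a Ctnnb1 exon over 475 bases.

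Other genes also differed in transcript from library to library, without following the populations. Wnt5b FPKM from the inner start, 77136 bases from the distal one, was 48.4% and 15.7% of the gene's total in Krt6a+ cells, against 16.2%, 57.0% and 52.7% in WAP+ cells. Wnt11 FPKM from the upstream start appeared in Krt6a+ library 3 (5.48) and WAP+ library 3 (4.07) only. For Tle3, the whole value fell on NM_009389 in Krt6a+ library 3 and on NM_001083928 in the other 4. The Tle3 models share a start and span, so the split of their reads is also uncertain.

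**Figure D4:**
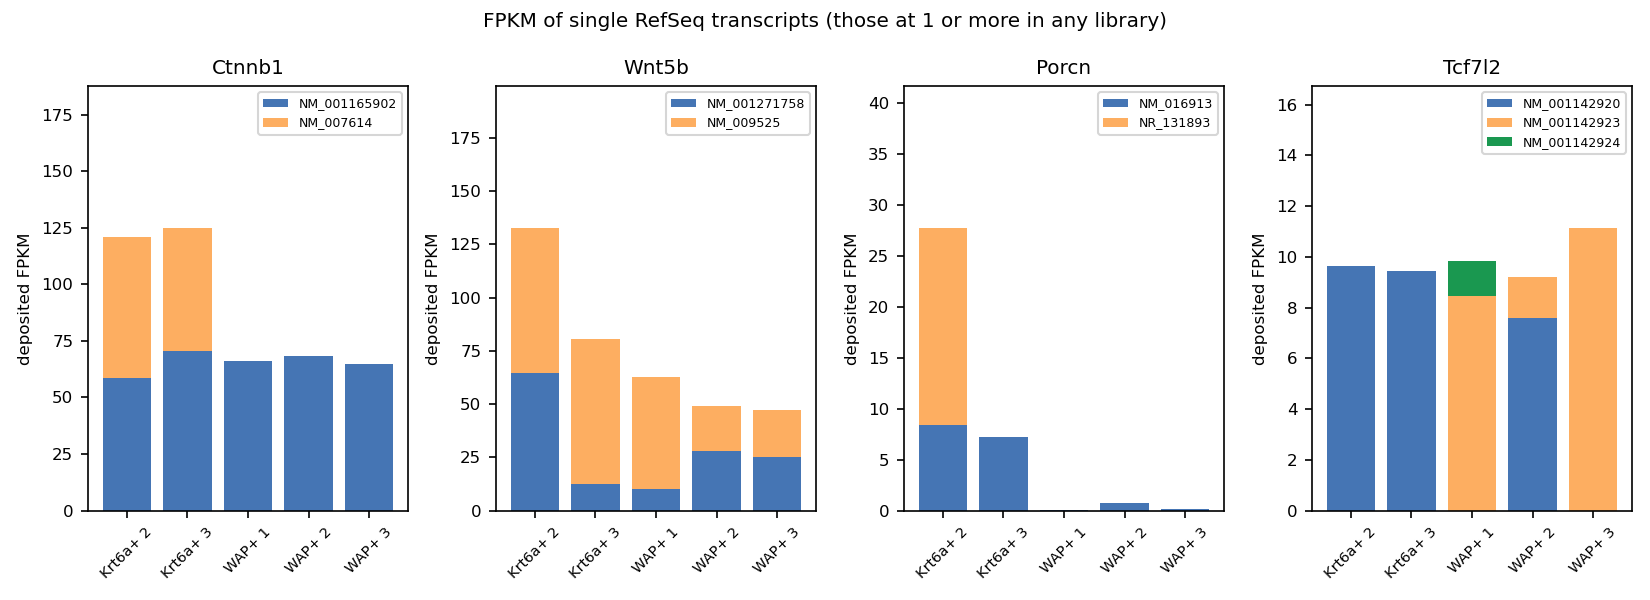
Deposited FPKM of single RefSeq transcripts of Ctnnb1, Wnt5b, Porcn and Tcf7l2 in each library, stacked to the total of those at 1 or more in any library. The upper Ctnnb1 block, NM_007614, is present at 62.0 and 54.4 in Krt6a+ libraries and absent from the WAP+ bars, while the Wnt5b blocks vary within each population.

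No nuclear factor separated the populations among the 5 that were tested. Tcf7l2, the most abundant TCF gene here, had FPKM 9.65 and 9.46 in Krt6a+ cells, against 9.84, 9.20 and 11.2 in WAP+ cells (limma, log2 -0.17 ± 0.52 SE, adjusted p = 0.908). The total was even across libraries, while its transcripts were not. NM_001142920 held all of the total in Krt6a+ cells, and 82.7% in WAP+ library 2. It was listed at 0 in WAP+ libraries 1 and 3, where NM_001142923 held 86.0% and 100%. These models share a start and span, so the split of their reads is uncertain. Tcf7 had 4.55 and 3.54 in Krt6a+ cells, against 4.01, 3.93 and 1.72 in WAP+ cells, and Tcf7l1, often a repressor, did not exceed 1.73. Lef1 was listed at 0 in every library, and the antisense gene Gm43352 overlaps its exons. Of the co-repressors, Tle3 stayed between 3.87 and 5.90, and Tle1 had 0.22 and 1.27 in Krt6a+ cells, against 1.83, 0.94 and 6.41 in WAP+ cells (limma, log2 -1.13 ± 0.80 SE, adjusted p = 0.504). Bcl9, a co-activator that docks on beta-catenin, was listed at 0 in both Krt6a+ libraries and had 0.76, 0.50 and 0.96 in WAP+ libraries, below the filter.

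Further genes of the pathway gave no call in limma over all genes. Of 42 other regulators, 25 were tested, with 0 called, 3 higher and 0 lower at an unadjusted p under 0.05, and a median of -0.11. These were 12% and 0% of the list, against 7.66% and 9.45% of all tested genes. The kinase Csnk1e had FPKM 35.9 and 40.7 in Krt6a+ cells, against 17.9, 9.74 and 14.4 in WAP+ cells, Gsk3a, the paralog of Gsk3b, 15.8 and 22.6 against 5.84, 0 and 6.10, and the co-repressor Tle2 4.68 and 4.98 against 1.18, 1.38 and 0.33 (limma, adjusted p = 0.192, 0.250 and 0.270). Of 20 planar polarity and non-canonical genes, 16 were tested, with 0 called, 2 higher and 0 lower at an unadjusted p under 0.05, and a median of 0.06. The shares were 12.5% and 0%, against the same 7.66% and 9.45%. Celsr1, a polarity cadherin, had 4.62 and 1.52 in Krt6a+ cells, against 0.04, 0 and 0 in WAP+ cells, and Daam1, a formin downstream of Dishevelled, 23.7 and 13.1 against 1.85, 4.40 and 5.17 (limma, adjusted p = 0.175 and 0.204). Invs, a Dishevelled-binding protein of cilia, was listed at 0 in both Krt6a+ libraries and had 0.77, 1.54 and 1.14 in WAP+ libraries (limma, adjusted p = 0.337).

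Of 31 genes commonly cited as transcriptional targets of the pathway, 18 were tested, with 0 called in limma, 0 higher and 3 lower at an unadjusted p under 0.05, and a median of -0.04. That is 0% higher and 16.7% lower, beside 7.66% and 9.45% of all tested genes. The list leaves out Axin2, Lgr5, Rnf43, Znrf3 and Notum, which are given above. Among these, Axin2 and Lgr5 were higher in both Krt6a+ libraries than in any WAP+ library. Notum stood out in Krt6a+ library 3 alone, and Rnf43 and Znrf3 overlapped between populations. Birc5, a survival and mitosis gene, was listed at 0 in both Krt6a+ libraries and had FPKM 9.70, 2.69 and 2.45 in WAP+ libraries. Sox4, a transcription factor, had 9.57 and 20.9 in Krt6a+ cells, against 33.2, 71.5 and 43.3 in WAP+ cells. Procr, a receptor known as a marker of a mammary stem cell subset and of endothelium, had 0.12 and 7.64 in Krt6a+ cells, against 227, 8.75 and 32.9 in WAP+ cells, highest in the library with the endothelial markers, whose part in this value was not tested. These 3 did not pass (limma, adjusted p = 0.138, 0.163 and 0.173).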

How the data were processed

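The authors deposited 1 table per library with FPKM for 34535 RefSeq transcripts, the lower and upper 95% bounds of each FPKM, and a coverage, per the file headers. Per the submitters' processing notes, TopHat, Cufflinks and mm10 were used, with versions not given in the sources used here. Per the labels' protocols, cDNA was amplified with SMART-Seq v4 and sequenced as paired reads of 100 bases. The deposited coverage signal was not used, and no read totals are given, so precision was read from the FPKM bounds. These describe the estimate within 1 library and leave out variation between libraries.

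FPKM was summed by symbol and divided by a factor per library (0.980 and 1.13 for Krt6a+, 1.14, 0.909 and 0.873 for WAP+), the median ratio over the 5334 genes that reached FPKM 1 in every library. Libraries held 8112 to 8900 genes at that level. The 9682 genes reaching FPKM 1 in 2 or more libraries were fitted with limma 3.58.1 in R 4.3.3 (trended variance; residual df 3, prior df 4.87) on log2(scaled FPKM + 1); tests were two-sided, p-values were adjusted by Benjamini-Hochberg, and 0.05 was the threshold. The fit was also run on simulated data with known changes placed only in highly expressed genes. That run does not show how the fit performs on low genes, such as most members. Members and lists were chosen with earlier results of these data known. Genes given with a test were Wnt1 and the 16 tested members of smallest unadjusted p (Wnt1 among them), and 3 genes per further list. Tcf7l2 was added after its values were seen, and a test is also given for the cell type markers Acta2, Kit and Fabp4. Others are given by values. Exons of 15 members, 7 of them tested, lie under a gene on the other strand in GENCODE M21 (GRCm38).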

Additional observations from a re-analysis of the deposited data

How the results depend on the processing

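The 16 genes of smallest p were refitted under 14 alternatives, which gave 213 values. Of these, 210 kept their direction and their side of the threshold. Their sizes moved more, with the extremes mostly at pseudocounts 0.1 and 5 (for Wif1, with either Krt6a+ library left out; for Sfrp2, the smallest with the replicate block): the log2 difference ran from 1.84 to 5.01 for Porcn, 0.46 to 3.45 for Lgr5, 0.72 to 3.31 for Fzd8, 0.40 to 2.22 for Dkk3, 1.19 to 4.33 for Wif1, -2.61 to -0.53 for Sfrp2 and -5.54 to -1.14 for Rspo1. Wnt7b passed in 2 of them, without Krt6a+ library 3 (log2 3.53) and with a filter of FPKM 5 in 2 libraries (log2 2.96). The sign of Ctnnb1 turned with the highest transcript per symbol (-0.12), by the construction of that choice. In 11 cases the gene did not pass the filter and had no value: Porcn and Lgr5, for example, without either Krt6a+ library.

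The number of members past the threshold was 1 higher with the FPKM 5 filter, and 0 to 1 when single libraries were left out. The median log2 difference was -0.077 with no filter (57 genes) and 0.76 with the FPKM 5 filter (17 genes), and 0.10 to 0.42 when single libraries were left out. The number of genes whose Krt6a+ values lay below all WAP+ values was 5 with no filter, and 4 to 8 when single libraries were left out (8 without Krt6a+ library 3), which leaves fewer libraries to overlap. Where a population is left with 1 library, that library is assumed to vary like the others. The counts over all genes were 25 higher and 42 lower. They were 6 and 20 at pseudocount 0.1, 41 and 31 at pseudocount 5, 2 and 3 with no filter, 71 and 92 with the FPKM 5 filter, and 7 and 9 with no trend. They were 23 and 27 with no scaling, 39 and 39 with quantile normalization, 15 and 19 with the replicate block, and 2 to 43 and 3 to 101 when single libraries were left out.

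Replicate numbers 2 and 3 occur in both populations, but deviations of same-numbered libraries from their population means correlated at 0.0495 and 0.0003. With only 2 Krt6a+ libraries their deviations mirror each other, so these correlations are not separate checks. Nothing here shows that the numbers pair the samples. With a replicate block the median was 0.28, 0 members passed, and the log2 difference of Wnt7b was 3.00 (limma, adjusted p = 0.138).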
